A study of Rattus norvegicus with 26 samples.

Results

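A set of 9 genes was examined in the hippocampus of aging rats fed 3 amounts of vitamin D3. Rad17, Rad1, Hus1, Rad9a and Atr belong to the DNA damage checkpoint, and Xrcc1, Lig3 and Parp1 to single-strand break repair. The last gene, Topors, attaches ubiquitin or SUMO to other proteins. Each gene was followed through the probe set that carried its symbol alone, with the highest mean where several did. Of the 9 genes, 7 had such a probe set, 1 each, and all 7 lay over the intensity filter that left 8485 genes in the test. Rad9a and Atr had no probe set in the array annotation used, by symbol, gene ID or accession, and have no values here. The set was chosen by differences between the diets measured on these same arrays, with partner genes added, so the diet values of all 9 genes are a description and carry no test.

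The rats were male F344 animals aged 18 months that had eaten their diet for 5 to 6 months. Each kg of their purified diet held 100 IU of vitamin D3 for the low group, 1000 IU for the control group or 10000 IU for the high group, and these groups gave 8, 9 and 9 arrays, 1 for each rat. Apart from the amount of vitamin D3, the groups shared strain, sex, age, tissue and array type (Affymetrix Rat Gene 1.0 ST). Rats were housed in pairs and told apart by a tail mark, which made 13 marked and 13 unmarked rats in 14 cages, 12 of them with both rats measured. All 8 hippocampal neuron markers with a probe set were over the intensity filter, with Prox1 of the dentate gyrus and Wfs1 of the CA1 field among them. Of 10 markers of dividing cells with a probe set, only Tyms was over it. The whole tissue was measured, so fewer cells of a type and less RNA per cell cannot be told apart. Values are log2 intensities, and the number of arrays limits their precision.

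Cells answer DNA damage in stages. Rad17 loads a ring of Rad9a, Rad1 and Hus1, the 9-1-1 clamp, onto DNA next to a lesion, where the clamp helps to switch on the kinase Atr. Single-strand breaks are found by Parp1, which marks the site with poly(ADP-ribose), and are closed by DNA ligase III (Lig3), held in place by the scaffold protein Xrcc1. Topors binds topoisomerase I and p53 and attaches ubiquitin or SUMO to other proteins. Neurons no longer divide and rely on single-strand break repair, and loss of XRCC1 function causes a neurodegenerative disease in people.

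The promoters of Rad17, Xrcc1 and Topors are shown because these 3 genes had the widest spacing of diet means. Each line holds the 250 bases before the transcription start of the RefSeq table (build GRCr8), 5′ to 3′ on the strand of the gene, with capitals for a CCAAT box or a GC box (GGGCGG) on either strand. The windows are chr2:33528145-33528394 on the minus strand for Rad17, chr1:89268939-89269188 on the plus strand for Xrcc1 and chr5:60195980-60196229 on the minus strand for Topors. The annotated ranges of Rad17 and Xrcc1 also reach past the starts used here, so these 2 windows lie within the gene as RefSeq draws it.
Rad17: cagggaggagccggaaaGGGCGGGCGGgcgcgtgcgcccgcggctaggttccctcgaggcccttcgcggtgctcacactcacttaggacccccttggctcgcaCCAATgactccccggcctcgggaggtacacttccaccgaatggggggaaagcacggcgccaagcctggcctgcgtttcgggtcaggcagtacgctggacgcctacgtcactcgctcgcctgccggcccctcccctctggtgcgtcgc
Xrcc1: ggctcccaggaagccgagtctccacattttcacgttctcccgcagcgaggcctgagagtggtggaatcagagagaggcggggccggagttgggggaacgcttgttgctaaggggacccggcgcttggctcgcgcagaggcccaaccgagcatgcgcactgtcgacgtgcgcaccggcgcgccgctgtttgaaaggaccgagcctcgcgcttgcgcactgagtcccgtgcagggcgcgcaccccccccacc
Topors: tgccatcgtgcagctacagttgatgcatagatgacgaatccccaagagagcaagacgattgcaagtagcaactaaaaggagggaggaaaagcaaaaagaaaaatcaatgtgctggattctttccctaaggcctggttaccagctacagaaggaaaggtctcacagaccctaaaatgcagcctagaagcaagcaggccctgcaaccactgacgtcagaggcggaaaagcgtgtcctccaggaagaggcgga

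The windows of the 3 genes differed in composition and in these motifs. Rad17 had 70% G and C, Xrcc1 68% and Topors 49.6%. Rad17 held 1 CCAAT box and 2 GC boxes that overlap by 2 bases, and neither motif was found in the windows of Xrcc1 and Topors. Among 27457 RefSeq promoters of the same length, 34.3% held a CCAAT box and 32.4% a GC box. Over the 9 genes, 3 had a CCAAT box (Rad17, Rad9a and Atr) and 5 a GC box (Rad17, Hus1, Atr, Lig3 and Parp1). A direct repeat of the kind the vitamin D receptor binds, with AGGTCA or its variants (GGTTCA as well as AGTTCA, and also GGGTCA) on both sides of 3 free bases and searched on both strands, was in 0 of the 9 windows and in 0.0947% of all promoters. Of the motifs of the E2F factors, TTTCCCGC was in 0 of 9 windows against 0.856% of all promoters. TTTGGCGC was in 0 of 9 against 0.426%, and TTTCGCGC in 0 of 9 against 0.262%.

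Rad17, the clamp loader, was highest on the control diet. Its values ran from 7.46 to 7.66 with a median of 7.56 on low, from 7.60 to 7.81 with a median of 7.71 on control, and from 7.50 to 7.65 with a median of 7.62 on high. The diets overlapped, but 5 of 8 low-diet rats lay below every control rat, and all low-diet and high-diet rats lay below the control mean. The means were 7.57 ± 0.07, 7.71 ± 0.07 and 7.61 ± 0.04 (SD, n = 8, 9 and 9). Low minus control was -0.14 log2 (SE 0.03, a ratio of 0.906), and high minus control was -0.10 (SE 0.03, a ratio of 0.932). High minus low was +0.04 (SE 0.03). Leaving out any 1 of the 26 rats kept low minus control between -0.16 and -0.13, and high minus control between -0.12 and -0.09.

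Of the clamp genes, Rad1 did not follow Rad17, while Hus1, like Rad17, had its highest mean on the control diet, by smaller differences. Rad1 ran from 7.47 to 7.79 with a median of 7.62 on low, from 7.45 to 7.74 with a median of 7.58 on control, and from 7.48 to 7.86 with a median of 7.60 on high. Its lowest mean, 7.59 ± 0.08, was on the control diet, where Rad17 was highest, against 7.65 ± 0.11 on low and 7.62 ± 0.11 on high. The low minus control difference of Rad1 was +0.06 log2 (SE 0.05), with a 95% interval from -0.03 to 0.15. Hus1 ran from 9.29 to 9.43 with a median of 9.39 on low, from 9.28 to 9.58 with a median of 9.39 on control, and from 9.26 to 9.48 with a median of 9.38 on high. Its means were 9.37 ± 0.05, 9.42 ± 0.09 and 9.38 ± 0.06. Low and high lay below control by like amounts for Hus1, with differences of -0.05 (SE 0.03) and -0.04 (SE 0.03). For Rad1 and Hus1 all 3 diets overlapped, and the intervals of all 3 differences spanned 0.

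Xrcc1, the repair scaffold, had a mean that stepped down from low through control to high. It ran from 8.42 to 8.73 with a median of 8.48 on low, from 8.33 to 8.47 with a median of 8.42 on control, and from 8.23 to 8.48 with a median of 8.37 on high. Every low-diet value was above those of 6 of the 9 high-diet rats, and 6 of 8 low-diet rats lay above every control rat. The means were 8.51 ± 0.10, 8.42 ± 0.05 and 8.36 ± 0.08. High minus low was -0.15 log2 (SE 0.04, a ratio of 0.902), high minus control -0.06 (SE 0.04) and low minus control +0.09 (SE 0.04). Low rat 4, at 8.73, stood apart from the next low-diet rat at 8.52. Without it high minus low was -0.12 and low minus control +0.05.

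The partners of Xrcc1 had closer means. Lig3, the ligase, ran from 8.51 to 8.71 with a median of 8.60 on low, from 8.51 to 8.66 with a median of 8.61 on control, and from 8.50 to 8.70 with a median of 8.59 on high. The means of Lig3 were 8.60 ± 0.06, 8.60 ± 0.05 and 8.59 ± 0.05. The 95% interval of high minus low ran from -0.07 to 0.04, a ratio between 0.951 and 1.03. Parp1, the break sensor, ran from 9.06 to 9.17 with a median of 9.10 on low, from 8.99 to 9.24 with a median of 9.08 on control, and from 8.97 to 9.15 with a median of 9.04 on high. Its means were 9.10 ± 0.04, 9.08 ± 0.07 and 9.06 ± 0.06. They had the same order over the diets as those of Xrcc1, with a high minus low difference of -0.04 (SE 0.03) and an interval from -0.11 to 0.02. The 3 diets overlapped for both genes, although in Parp1 5 of 9 high-diet rats had less than the lowest low-diet rat.

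Topors was lowest on the low diet. It ran from 8.69 to 9.01 with a median of 8.79 on low, from 8.77 to 9.13 with a median of 8.96 on control, and from 8.85 to 9.06 with a median of 8.93 on high. All 9 high-diet rats lay above the low mean, and 3 of 8 low-diet rats lay below every control rat, but the ranges overlapped. The means were 8.81 ± 0.10, 8.95 ± 0.11 and 8.94 ± 0.07. Low minus control was -0.14 log2 (SE 0.04, a ratio of 0.907), high minus low +0.13 (SE 0.04, a ratio of 1.10) and high minus control -0.01 (SE 0.04). Low rat 6, at 9.01, was the highest of its diet, with the next low-diet rat at 8.88. Only control rats 10 and 11, at 9.13 and 9.02, lay above every low-diet rat. Control rats 15 and 13, at 8.77 and 8.79, were the lowest on the control diet.

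**Figure D1:**
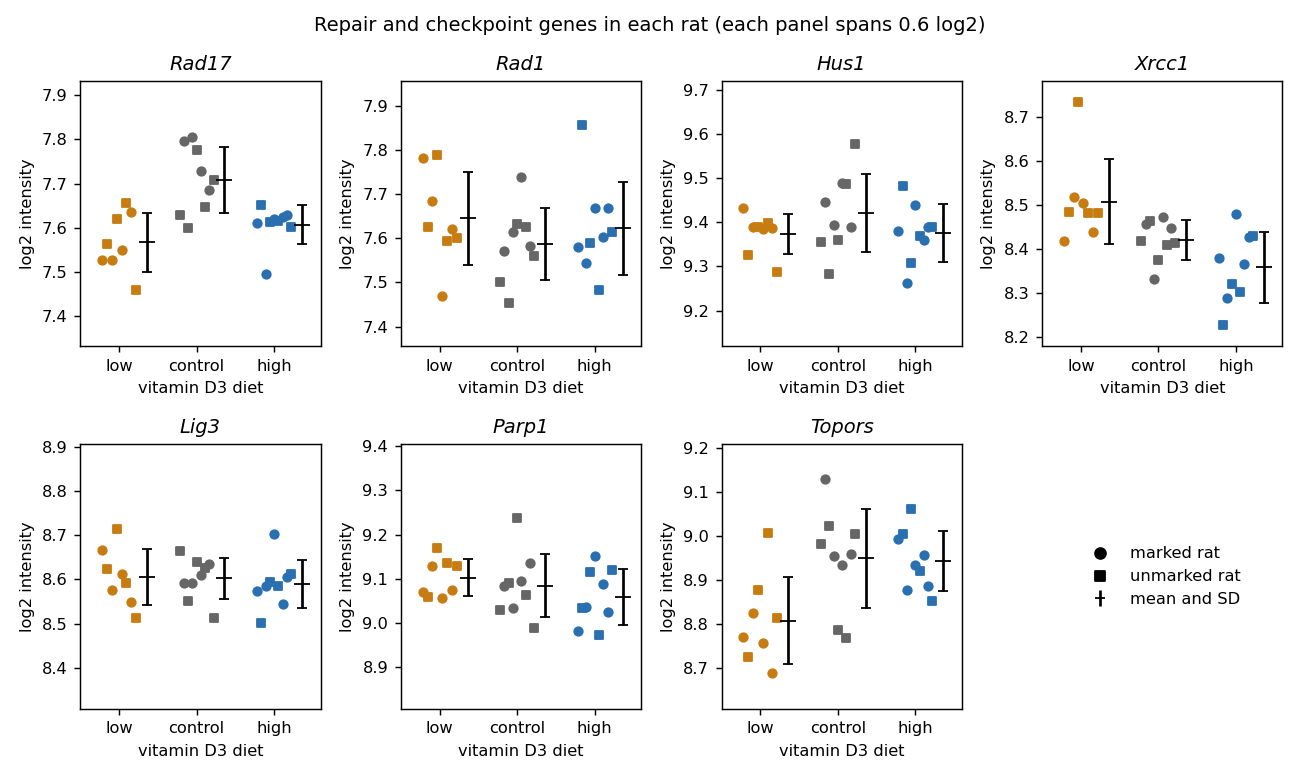
Log2 intensity of each of the 7 measured genes (vertical axis) in every rat by diet (horizontal axis); circles are marked rats, squares unmarked rats, and the bar is the mean with its SD (n = 8, 9 and 9). Rad17 is highest on control, the mean of Xrcc1 steps down from low to high, Topors is lowest on low, and the ranges of the diets overlap in every panel.

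In the fit over all 8485 genes no gene was called by diet at an adjusted p under 0.17, the stricter rate of the series design, and 0 of the 7 measured genes were. At an unadjusted p under 0.05 in limma's moderated F-test there were 3 of 7 (Rad17, Xrcc1 and Topors), where 4.62% of all tested genes lay. The counts were 2 of 7 for high minus low (7.22% of all genes), 1 of 7 for high minus control (4.63%) and 3 of 7 for low minus control (2.27%). The F-test without moderation also called 0 of the 7, with 3 of 7 at an unadjusted p under 0.05. These contrasts chose the genes, so nothing is read from the counts. The control rats enter both differences against control. Among the alternatives run, a call was reached only when values over 2 SD from their diet mean were removed, as the series design describes. This removal narrows the spread within each diet. It called 17 of all tested genes in the F-test and 30 for high minus low, where the main fit called 0. Rad17 was among the 17 and Xrcc1 among the 30. The set was chosen by diet differences on these arrays, so nothing is read from those calls either.

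**Figure D2:**
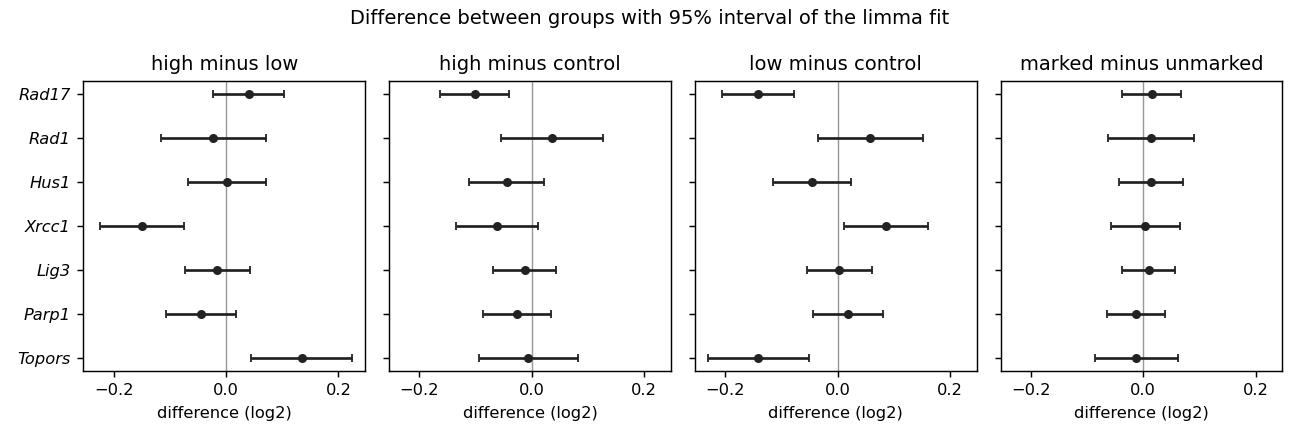
Difference between groups in log2 intensity (horizontal axis) for each of the 7 measured genes, with the 95% interval of the fit over all genes; the panels are the 3 diet contrasts and marked minus unmarked rats. Rad17 and Topors lie at -0.14 in low minus control and Xrcc1 at -0.15 in high minus low, while all intervals for the tail mark span 0.

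The tail mark gave a comparison that did not choose the genes. With diet in the model, 0 of the 7 genes were called between marked and unmarked rats, and 0 of 7 had an unadjusted p under 0.05 in limma, where 5.32% of all genes lay and 0 genes were called. The test without moderation also gave 0 of 7 at both levels. Rad17 had the smallest p of the 7. It ran from 7.50 to 7.81 with a median of 7.62 in 13 marked rats and from 7.46 to 7.78 with a median of 7.62 in 13 unmarked rats. The fitted difference of Rad17 was +0.02 log2 (SE 0.03, adjusted p = 0.974 in limma). The 7 fitted differences lay between -0.01 and 0.02. Compared within the 12 cages where both rats were measured, 0 of the 7 genes were called or had an unadjusted p under 0.05 in limma, where 5.88% of all genes lay and 0 genes were called. Rad17 was higher in the marked rat in 6 of 12 cages.

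The spread between rats of one diet lay on both sides of that of a typical gene. The within-diet SD was lowest for Lig3 at 0.0552 and highest for Rad1 at 0.0977, against a median of 0.0757 over all tested genes. Topors, at 0.0947, was also more variable than most genes, and Rad17, at 0.0629, was less so. Over 12 cages, cage mates differed by a mean of 0.0716 in Xrcc1, against 0.0829 for other rats of the same diet. For Rad17 cage mates differed by 0.0779 and other rats by 0.0690, and for Parp1 by 0.0813 and 0.0678. In Rad1, Hus1, Lig3 and Topors cage mates were closer than other rats, as in Xrcc1. These gaps were not tested.

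Partners in a complex were then compared over rats after the diet means were removed, which takes out the diet differences that chose the genes. Of 7 relations set by the known complexes, 4 could be computed, since the other 3 needed Rad9a or Atr. A relation was taken as passing at an adjusted p under 0.05. Rad1 and Hus1, both clamp subunits, varied together over 26 rats with a Pearson r of 0.523 (permutation p = 0.00635, adjusted p = 0.0127 over 4 relations). Their Spearman rho was 0.575 (permutation p = 0.00267, adjusted p = 0.0107), and r was 0.385 without the 2 rats farthest from the median of Rad1. Of all tested genes 2.77% had an r to Rad1 at least as high. With each of the 14 cages averaged first, r was 0.528 (permutation p = 0.0530, adjusted p = 0.212), so it did not pass when cage mates were merged. The rank correlation also did not pass after quantile normalization (rho = 0.451, adjusted permutation p = 0.0874) or centring (rho = 0.453, adjusted permutation p = 0.0785).

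Xrcc1 and Lig3 had a Pearson r of 0.525 (permutation p = 0.00594, adjusted p = 0.0127), but a Spearman rho of 0.303 (permutation p = 0.133, adjusted p = 0.133). The r fell to 0.177 without the 2 rats farthest from the median of Xrcc1, so much of it rests on those rats. Without the 2 farthest rats it fell from 0.471 to 0.276 after quantile normalization and from 0.506 to 0.274 after centring. Of all tested genes 2.37% had an r to Xrcc1 of 0.525 or more. Over cage means the r of Xrcc1 and Lig3 was 0.321 (permutation p = 0.261, adjusted p = 0.349). Xrcc1 and Parp1 had an r of 0.372 (permutation p = 0.0605, adjusted p = 0.0807; rho = 0.348, permutation p = 0.0818, adjusted p = 0.109), or 0.165 without the 2 farthest rats. Over cage means the r of Xrcc1 and Parp1 was 0.324. Rad17 and Rad1 had an r of 0.336 (permutation p = 0.0919, adjusted p = 0.0919; rho = 0.372, permutation p = 0.0634, adjusted p = 0.109), or 0.199 without the 2 farthest rats and 0.255 over cage means. These last 2 relations did not pass at 0.05. The permutations over rats took cage mates as independent.

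**Figure D3:**
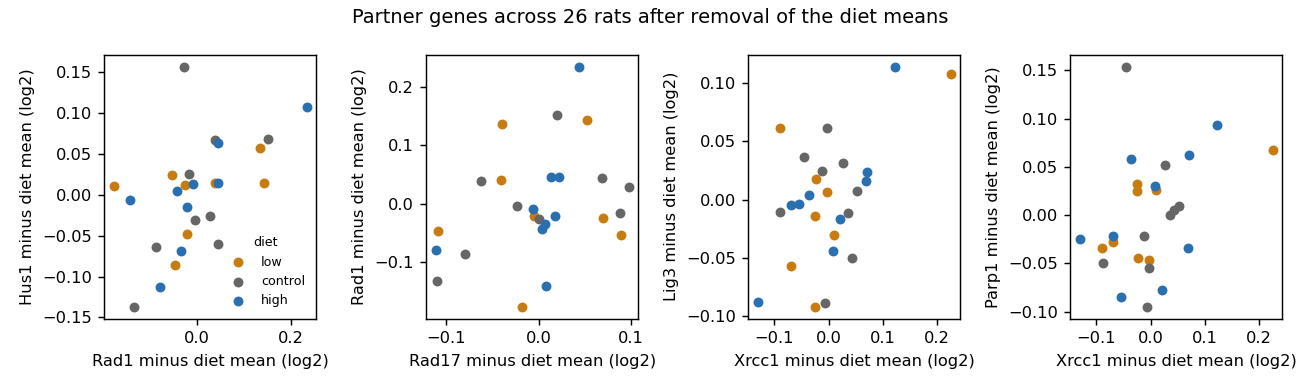
Log2 intensity minus the diet mean of one partner against the other over 26 rats, coloured by diet, for 4 pairs of genes. Rad1 and Hus1 lie along a rising band (r = 0.523, or 0.385 without the 2 rats farthest from the median of Rad1). For Lig3 against Xrcc1 r is 0.525, or 0.177 without the 2 rats farthest from the median of Xrcc1.

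The genes whose within-diet pattern over 26 arrays was most like that of Rad17 were Uqcc6 (r = 0.721), an assembly factor of respiratory complex III, the kainate receptor gene Grik2 (0.670) and Zfp451 (0.664), among 8484 genes compared with a median r of -0.00349. For Xrcc1 they were the chaperone gene Dnajb5 (0.768), Pdcl3 (0.759) and Fastkd3 (0.740), with a median r of 0.104. None of the 6 belongs to the lists of damage response genes used here. Those lists do not hold every gene of these pathways, so this does not place the 6 outside the damage response. The points of each r share the same arrays, and these values are a description.

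The rest of the damage response was read through 5 lists with 127 distinct genes, of which 101 had a probe set and 62 were tested. Limma called 0 of the 62 in the F-test or in any diet contrast. At an unadjusted p under 0.05 there were 8 of 62 for high minus low, which is 12.9% against 7.22% of all genes; 5 of them were higher, as were 4.5% of all genes, and 3 lower, as were 2.72%. There were 5 of 62 for high minus control (8.06% against 4.63%) and 2 of 62 for low minus control (3.23% against 2.27%), both of them lower, where 1.61% of all genes lay. In the F-test there were 4 of 62 (6.45% against 4.62%). Without moderation 0 were called, with 6, 5 and 2 genes in the same order of contrasts. For the tail mark 0 were called and 1 of 62 had an unadjusted p under 0.05 in limma (1.61% against 5.32%). Medians of the 62 genes were 0.0055 log2 for high minus low, -0.0074 for high minus control and -0.014 for low minus control, where those of all tested genes were 0.0053, 0.00043 and -0.0043.

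In the list of checkpoint genes, with 15 tested, the genes of smallest p in each direction differed by 0.11 log2 or less. Rfc2, one of the small subunits that Rad17 joins to form the clamp loader, was 7.73 ± 0.10 on low, 7.78 ± 0.10 on control and 7.83 ± 0.08 on high, with a high minus low difference of +0.11 (SE 0.05, adjusted p = 0.680). Atm, the kinase of double-strand breaks, had a high minus low difference of -0.06 (SE 0.03, adjusted p = 0.680). Rad50, a part of the complex that senses broken ends, had a high minus control difference of -0.08 (SE 0.03, adjusted p = 1.00), and Rfc1, the large subunit of the replication clamp loader, had +0.04 (SE 0.03, adjusted p = 1.00). Rpa2, which coats single-stranded DNA, differed by -0.09 (SE 0.04, adjusted p = 1.00) and Cdc25b, a phosphatase that starts mitosis, by +0.04 (SE 0.04, adjusted p = 1.00) between low and control. None passed limma's test over all genes.

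Polb, the DNA polymerase that fills the gap in base excision repair before Lig3 seals it, had the smallest p of the 13 tested genes of its list for high minus low. Its means were 9.76 ± 0.08 on low, 9.78 ± 0.07 on control and 9.86 ± 0.08 on high, which differ between high and low by +0.10 (SE 0.04, adjusted p = 0.674), with the opposite sign to Xrcc1. Mutyh, a glycosylase that removes mispaired adenine, differed by -0.05 (SE 0.03, adjusted p = 0.762) between high and low and by -0.06 (SE 0.03) between high and control. For low minus control Ogg1, the glycosylase of oxidised guanine, differed by -0.07 (SE 0.05) and Adprs, which removes ADP-ribose from serine, by +0.02 (SE 0.04). In this list 11 of 13 genes had a lower mean on low than on control, where 55.9% of all tested genes did, with 0 called and 0 at an unadjusted p under 0.05 in limma.

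In the list of double-strand break repair, with 10 tested genes, Xrcc4, a partner of ligase IV, differed by +0.08 (SE 0.05) and Rad52 by -0.04 (SE 0.03) between high and low. For low minus control Rad52 differed by +0.04 (SE 0.03) and Rbbp8, which trims broken ends, by -0.05 (SE 0.04). Of the 12 tested p53 target genes, Phlda3, an inhibitor of Akt signalling, was 7.69 ± 0.06, 7.68 ± 0.09 and 7.77 ± 0.10 on low, control and high. The damage recognition gene Xpc was 8.06 ± 0.09, 8.07 ± 0.06 and 7.99 ± 0.07. Between high and low they differed by +0.09 (SE 0.04) and -0.07 (SE 0.03), both with an adjusted p of 0.680 in limma. The low minus control differences of the kinase gene Plk2 and the ribonucleotide reductase gene Rrm2b were +0.03 (SE 0.03) and -0.05 (SE 0.05).

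Genes that work beside Topors were read in a list of topoisomerases and the SUMO pathway, with 12 tested. Sumo3, one of the SUMO proteins, was 10.49 ± 0.06 on low, 10.56 ± 0.04 on control and 10.55 ± 0.03 on high. This is the order of diets that Topors had, with a low minus control difference of -0.06 (SE 0.02) for Sumo3 (adjusted p = 1.00). Top3b, a topoisomerase, differed by -0.07 (SE 0.03, adjusted p = 0.680) between high and low. The ubiquitin-conjugating gene Ube2d1 differed by +0.03 (SE 0.04) between high and control and the SUMO ligase gene Pias2 by +0.02 (SE 0.03) between low and control. None of the 12 was called by limma in any diet contrast.

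**Figure D4:**
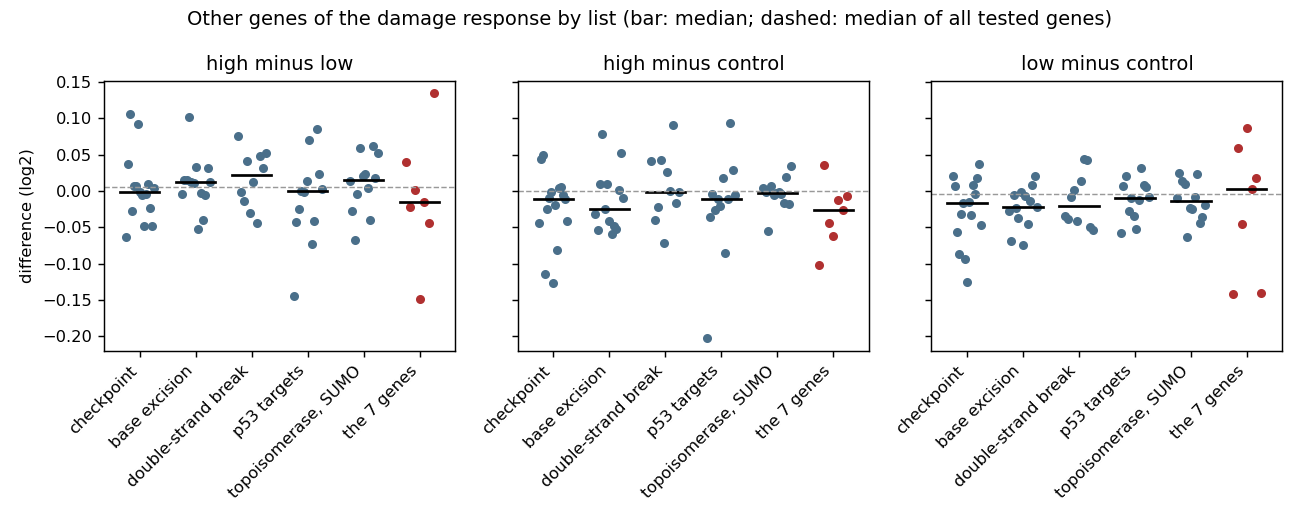
Log2 difference (vertical axis) of each tested gene in 5 lists of the damage response and of the 7 measured genes (red, right) for the 3 diet contrasts; the short bar is the median of a list and the dashed line the median of all tested genes. The medians of the 5 lists lie between -0.0244 and 0.0218. In low minus control Rad17 and Topors, at -0.14, lie below every other gene shown.

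Some of the marker lists, of hippocampal neurons, of neighbouring tissue and of vessel cells, also differed in mean in these contrasts. All 8 hippocampal neuron markers had a lower mean on high than on low, by a median of -0.05 log2, and 7 of 8 a higher mean on low than on control, by a median of +0.04. The log2 of their summed level ran from 14.2 to 14.4 on low, from 14.0 to 14.3 on control and from 13.8 to 14.3 on high. Of 3 thalamic markers with a probe set Slc17a6, a vesicular glutamate transporter, had a high minus low difference of +0.52 (SE 0.11) and the other 2 had negative ones. Its adjusted p of 0.286 was the smallest of all tested genes in that contrast, shared with 1 other gene, and both would be called at 0.31. Slc17a6 was singled out after its values were seen. The sum of the 3 ran from 9.07 to 9.20 on low, from 9.14 to 9.31 on control and from 9.10 to 9.39 on high. The 4 cortical markers with a probe set all had their higher mean on the high diet, by a median of +0.11 log2 relative to low and +0.12 relative to control. Their summed level ran from 13.0 to 13.2 on low, from 13.0 to 13.2 on control and from 13.0 to 13.3 on high. For endothelial and mural cells all 9 tested markers were lower on the high diet, by a median of -0.07 relative to low and -0.09 relative to control, and the sum of the 12 on the array ran from 11.9 to 12.1 on low and control and from 11.9 to 12.0 on high. The 10 markers of dividing cells summed to between 9.80 and 9.96 on low, 9.78 and 9.97 on control and 9.73 and 9.96 on high. Over 6 tested astrocyte, 5 oligodendrocyte and 6 microglial markers the medians for high minus low were -0.0019, 0.0012 and -0.029. For high minus control they were -0.015, 0.012 and 0.0028. At an unadjusted p under 0.05 in limma 0 of these markers lay for high minus low. For high minus control 1 of 6 astrocyte markers did. The only tested choroid plexus marker, Ttr, differed by -0.28 and -0.52 in these contrasts, with no p under 0.05 in limma. The 6 choroid plexus markers on the array summed to between 8.51 and 13.1 on control. They summed to between 8.90 and 10.5 on low and between 8.55 and 11.3 on high. Of all tested genes 7.22% had an unadjusted p under 0.05 in limma for high minus low and 4.63% for high minus control. In that order there were 1 of 8 and 0 of 8 hippocampal neuron markers, and 1 of 3 thalamic markers in each. There were 4 of 4 and 3 of 4 cortical markers, and 4 of 9 endothelial and mural markers in each. The 1 tested marker of dividing cells was in neither. Medians of all tested genes were 0.0053 log2 for high minus low, 0.00043 for high minus control and -0.0043 for low minus control. Of all tested genes 55.9% had a lower mean on low than on control. Limma called 0 markers of these lists over all genes. The part of these markers in the values of Xrcc1, Rad17 and Topors was not tested.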

How the data were processed

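The authors deposited 1 table of log2 probe set values, 29214 probe sets by 26 arrays, with 0 missing values between 4.28 and 15.4. The submitters' processing notes name Partek 6.6 and GCRMA without saying what each did. Array medians lay between 6.92 and 6.96, each array correlated with the rest by a mean of 0.997 to 0.998, and no 2 arrays were identical, so the values were used as deposited. The platform annotation gave 1 symbol to 15310 probe sets, several to 323 and none to 13581. Of the first group 15279 had a gene ID in the RefSeq table of GRCr8.

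For each of 14506 genes the probe set of highest mean was kept, and 8485 genes whose mean reached 6.94 (the median over the table's probe sets) were tested. Limma 3.58.1 (R 4.3.3) fitted models with diet as a factor, and the tail mark was tested in a model that also held diet. Tests were 2-sided, with Benjamini-Hochberg adjustment over all tested genes and calls at an adjusted p under 0.17. Correlations used 2-sided tests with 100000 permutations in NumPy 2.4.6. The genes described and the lists were chosen with earlier results of these data known. Named were all 9 genes of the set, the gene of smallest p in each direction of each list and contrast, the gene of smallest p of the set for the tail mark, and the 3 genes most like Rad17 and Xrcc1. Part of what this rule names is not reported here. The procedure was tested on simulated data. Promoter sequences came from RefSeq (GRCr8). Behaviour and serum measurements were not analysed here. The labels do not name separate batches.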

Additional observations from a re-analysis of the deposited data

Results flagged for a closer look

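In 21 groups of values, 1 for each of 7 genes on each diet, 3 held a rat that stood apart from the others by more of the range of its group than Dixon's 95% limit, which chance passes in about 1 of 20 groups. For Rad17, high rat 20 was lowest at 7.50, with the next rat at 7.60, a gap of 0.679 of the range. For Rad1, high rat 19 was highest at 7.86, with the next rat at 7.67, a gap of 0.502 of the range. For Xrcc1, low rat 4 was highest at 8.73, with the next rat at 8.52, a gap of 0.684 of the range.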

How the results depend on the processing

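No paired analysis of the diets was possible because each rat has a subject number of its own and the diets share none. Cage mates pair marked with unmarked rats, and a paired fit with cage as a fixed block over 12 cages, added after seeing the data, called 0 of the 7 genes and 0 of all tested genes for the tail mark. The fits were repeated without a filter and with a filter at 9.20 (which left 1 of the 7 genes), with probe sets kept apart, with quantile normalization, with arrays centred on their medians, with cage as a random block (correlation of cage mates 0.136), with array quality weights, with a trended robust prior, without moderation and with the tail mark as a covariate. They were also repeated at thresholds of 0.31 and 0.05, with values over 2 SD from the mean of their diet removed, and without each of the 26 rats in turn. Removal of values over 2 SD called 1 of the 7 genes in the F-test (Rad17, adjusted p = 0.107) and 1 between high and low (Xrcc1, adjusted p = 0.1698, at the edge of the threshold). It called 17 and 30 genes in all in these tests, where the main fit called 0. This removal narrows the spread within a diet, which favours calls, and diet differences chose the set, so the calls are a description. It took out the value of 1 rat each for Rad17, Rad1, Xrcc1, Lig3 and Parp1. In every other alternative listed, each rat left out included, 0 of the 7 genes were called by diet or tail mark. Of the 62 other damage response genes 0 were called by diet in any of them, removal of values over 2 SD included. Over all the alternatives the smallest adjusted p of the 7 genes in the F-test lay between 0.107 and 1.00, and that of the 62 genes for high minus low between 0.259 and 0.894. The differences of Rad17 and Topors for low minus control and of Xrcc1 for high minus low kept their sign in all 33 alternatives run for differences. Diet differences on these same arrays chose the set, so the kept signs are a description and no independent support. The correlation of Rad1 and Hus1 (r = 0.528) and that of Xrcc1 and Lig3 (r = 0.321) no longer passed over cage means, where 14 points replaced 26. All 4 Pearson correlations kept their sign and, with quantile normalization or centring, their side of 0.05, but the Spearman correlation of Rad1 and Hus1 no longer passed with either (adjusted permutation p = 0.0874 and 0.0785).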
